A study of Canis lupus familiaris with 10 samples.

Results

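CSF3 (ENSCAFG00000016261), PPBP (ENSCAFG00000031174) and CCL20 (ENSCAFG00000010505) encode secreted proteins that bring white blood cells into the blood or attract them into tissue. They are 3 of the 31897 genes measured by RNA-seq in canine atrial tissue. The 3 genes were chosen by their difference between the CPVA group and the control group in these same libraries, because the study places them among the 20 genes that lead its list of DEGs. That difference is therefore given here as a description, and a fit over all genes serves only as background. What the choice did not fix is how widely each gene was found, and how the genes differed from each other within a library.

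The tissue came from beagle canines, male or female, whose age is not stated in the labels. In the CPVA group (5 canines), a right-sided thoracotomy was followed by circumferential pulmonary vein ablation (CPVA). Here a continuous line of lesions was burned along the root of the left pulmonary vein. The control group (5 canines) was a sham group that had the same thoracotomy and no ablation. Both groups were kept for 6 months, and atrial tissue near the ablation line or its target was then taken after an electrical study of the heart. All animals had thus had open chest surgery, and each library holds RNA of mixed atrial tissue; nothing in the labels beyond the replicate number ties a library to an animal.

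CSF3 is granulocyte colony-stimulating factor. Macrophages, endothelial cells and fibroblasts release it in inflammation, and it drives the bone marrow to make neutrophils and to let them into the blood. PPBP is pro-platelet basic protein, which megakaryocytes make and platelets store in granules; its cleaved form, also called CXCL7 or NAP-2, attracts neutrophils through the receptor CXCR2. CCL20 is a chemokine of epithelial cells and macrophages that attracts dendritic cells and lymphocytes carrying the receptor CCR6.

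In the RefSeq annotation of another canine assembly, UU_Cfam_GSD_1.0, CSF3 lies on chromosome 9 between MED24 and PSMD3, with no gene overlapping it. PPBP lies on chromosome 13 between coding genes that have no symbol of their own, and no annotated gene overlaps it there. CCL20 lies on chromosome 25 before DAW1, and 1 long noncoding RNA gene overlaps its span. Whether their exons overlap was not checked, and whether the counting used strand is not given in the sources used here. It is thus not known whether reads of the pair were mixed. The reads themselves were mapped to CanFam3.1.

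Levels are given in FPKM as deposited, the fragments of a gene scaled to its length and to all fragments counted in the library. This unit allows a comparison between genes within a library. A comparison between libraries also depends on the make-up of each library. The reads behind each value could be worked out because FPKM values move in steps of 1 read. Library totals lay between 15120163 reads in CPVA3 and 25592249 reads in CPVA2. CPVA3 also stood apart in its make-up: its 10 most abundant genes took 17.7% of the reads, against 24.7% to 32.5% in the other 9 libraries. Intervals below are exact 95% Poisson or binomial intervals of the reads. Copies made by PCR are not separate molecules, and the intervals hold no error beyond that of counting.

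All 3 genes were highest in CPVA3 and second highest in CPVA2, and in CSF3 and CCL20 no other CPVA library was above the control group. PPBP was also higher in CPVA4 and CPVA5 than in any control library, at 5.25 and 2.28 times the highest control value. PPBP had reads in 10 of 10 libraries, CSF3 in 9 and CCL20 in 2. The 3 genes thus shared the same pair of high libraries. In the other 8, only PPBP was found above the control group, in CPVA4 and CPVA5. CCL20 is counted over a short length, so its zeros there are less informative, as described below.

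**Figure D1:**
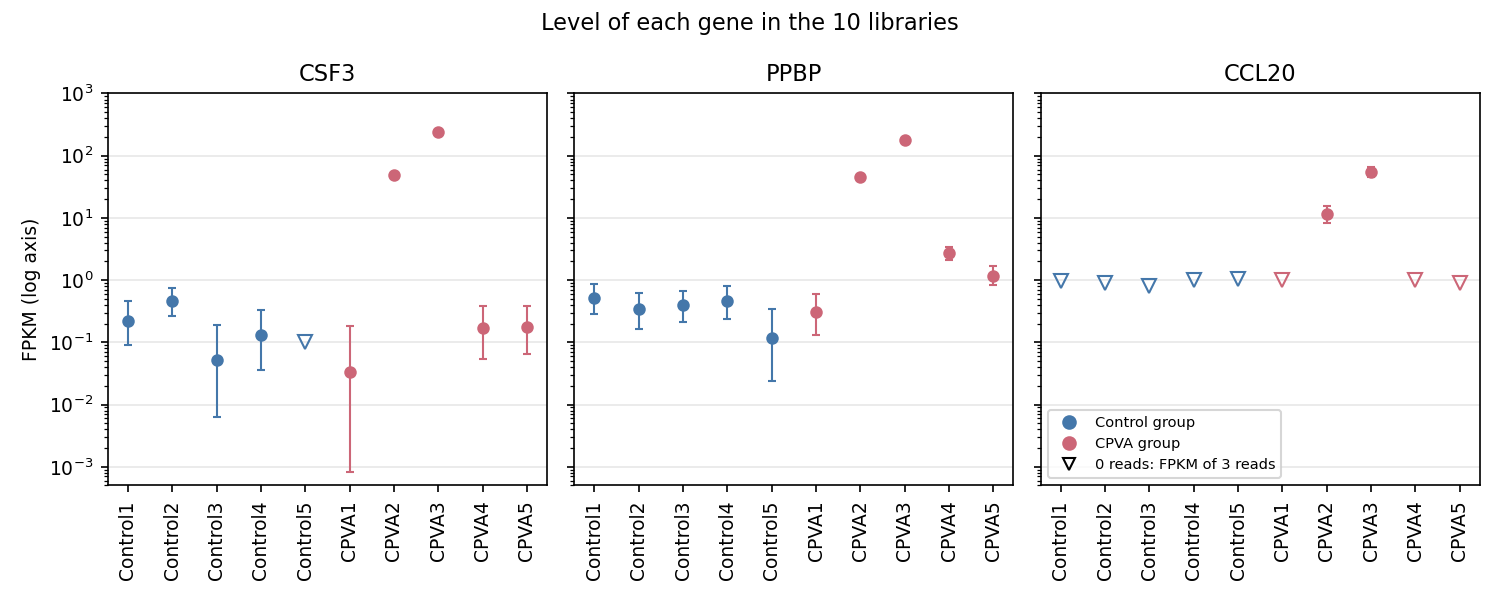
FPKM of CSF3, PPBP and CCL20 (log axis) in each control library (blue) and CPVA library (red), with exact 95% Poisson intervals; open triangles mark libraries with 0 reads at the FPKM that 3 reads would give. CPVA3 and CPVA2 were the highest for each gene, PPBP was above the control libraries in CPVA4 and CPVA5 as well, and the 8 triangles of CCL20 lie between 0.798 and 1.03 FPKM, higher than the control values of the other genes.

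CSF3, the granulocyte growth factor, was found at a low level in most control libraries. It had 0.223, 0.468, 0.0523, 0.131 and 0 FPKM in Control1 to Control5, from 7, 16, 2, 4 and 0 reads. In the CPVA group it had 0.0328 FPKM in CPVA1, 49.8 in CPVA2, 238.4 in CPVA3, 0.167 in CPVA4 and 0.179 in CPVA5. CPVA2 and CPVA3 were far above the rest, while CPVA1, CPVA4 and CPVA5 lay inside the range of the control group.

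The reads of CSF3 were 1906 in CPVA2 and 5386 in CPVA3, against 1, 5 and 6 in CPVA1, CPVA4 and CPVA5. The level in CPVA4 was 0.957 times and that in CPVA5 1.02 times the control mean. Ordered by level, each pair of neighbours from Control2 downwards had overlapping counting intervals on few reads. No order is therefore read among neighbours in those 8 libraries at this depth. CPVA3 (232.1 to 244.9 FPKM) and CPVA2 (47.6 to 52.1 FPKM) were separate from each other and from Control2 (0.268 to 0.760 FPKM).

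The control libraries had a mean CSF3 level of 0.175 ± 0.184 FPKM (SD, n = 5), and the CPVA libraries one of 57.7 ± 103.3 FPKM (SD, n = 5). The ratio of the means was 330.1, but CPVA2 and CPVA3 gave 99.9% of the CSF3 total over the CPVA libraries. The ratio was 71.8 without CPVA3 and 568.3 without Control2, the highest control library. Without both CPVA2 and CPVA3 it was 0.723, and with medians in place of means it was 1.37.

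PPBP, the platelet chemokine, was found in every library. It had 0.521, 0.341, 0.397, 0.459 and 0.118 FPKM in Control1 to Control5, from 14, 10, 13, 12 and 3 reads. These values were closer together than those of CSF3, with an SD of 0.421 times the mean against 1.05 times for CSF3. Its background level in the control group was thus low, on 3 to 14 reads per library. CSF3 had fewer control reads in total, 29 against 52, and fewer reads alone widen the relative spread. How steady either gene was beyond counting error was not tested.

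In the CPVA group PPBP had 0.307 FPKM in CPVA1, 45.4 in CPVA2, 176.3 in CPVA3, 2.73 in CPVA4 and 1.19 in CPVA5. CPVA1, with 8 reads, lay inside the control range, and the other 4 libraries lay above it. CPVA4 had 70 reads and CPVA5 had 34 reads, against at most 14 in a control library. The counting interval of CPVA4 (2.13 to 3.45 FPKM) did not overlap that of Control1, the highest control library (0.285 to 0.874 FPKM). That of CPVA5 (0.821 to 1.66 FPKM) did overlap it. Such an overlap does not decide the order of CPVA5 and Control1, which rests on 34 against 14 reads and was not tested directly.

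CPVA4 and CPVA5 were 7.45 and 3.23 times the control mean of PPBP, or 15.3 and 5.29 control SDs above it. That SD comes from 5 values of at most 14 reads each. After median-of-ratios scaling of the libraries they had 2.69 and 1.21 FPKM, against 0.514 in the highest control library. The control libraries had a mean PPBP level of 0.367 ± 0.155 FPKM (SD, n = 5), and the CPVA libraries one of 45.2 ± 75.7 FPKM (SD, n = 5). The means differed 123.1-fold, and 33.8-fold without CPVA3. Without CPVA2 and CPVA3, the mean of CPVA1, CPVA4 and CPVA5 was 1.41 ± 1.23 FPKM (SD, n = 3), or 3.84 times the control mean. The same ratio was 0.723 for CSF3. In these 3 libraries the SD of PPBP was almost as large as its mean, and CPVA1 was below the control mean.

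CCL20, the chemokine of CCR6, had 11.4 FPKM in CPVA2 and 54.4 FPKM in CPVA3 and was listed at 0 in each of the other 8 libraries. Its reads were at least 43 in CPVA2 and at least 121 in CPVA3, the smallest whole numbers in that ratio. The reads of each library that no gene accounts for limit them to at most 3 times these values, 129 and 363 reads, on a counted length between 147 and 441 bases. The counted lengths of CSF3 and PPBP were 1494 and 1280 bases.

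The short counted length of CCL20 makes its zeros less informative than those of the other genes. In the 8 libraries without reads, a count of 0 allows up to 3 reads, which would be 0.798 to 1.03 FPKM at the shortest length and 0.266 to 0.342 FPKM at the longest. At the mean control level of CSF3, CCL20 would have given between 0.565 and 1.69 reads per control library, and at that of PPBP between 1.19 and 3.56 reads. In a single control library, a level like that of CSF3 could thus have given no CCL20 read at this depth. A level like that of PPBP in CPVA4, 2.73 FPKM, is above the limit for CCL20 in that library, 1.02 FPKM, and was not seen.

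The mean of CCL20 in the CPVA group was 13.2 ± 23.6 FPKM (SD, n = 5). Against 3 reads in each control library this was at least 14.1-fold higher, or at least 3.05-fold higher without CPVA3. No ratio can be given without CPVA2 and CPVA3, where both groups are at 0.

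Within each library, the genes found there were ordered by FPKM. CSF3 was above 98.6% of the genes found in CPVA3 and 93.8% of those in CPVA2, but above 4.40% to 19.3% of those in CPVA1, CPVA4 and CPVA5. PPBP was above 98.1% and 93.1% of the genes in CPVA3 and CPVA2, 49.97% in CPVA4, 36.9% in CPVA5 and 23.3% in CPVA1, with 13.7% to 33.4% in the control group. CCL20 was above 93.1% of the genes in CPVA3 and 74.6% in CPVA2. In CPVA4, PPBP thus stood near the middle of the genes found and CSF3 among the low ones.

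**Figure D2:**
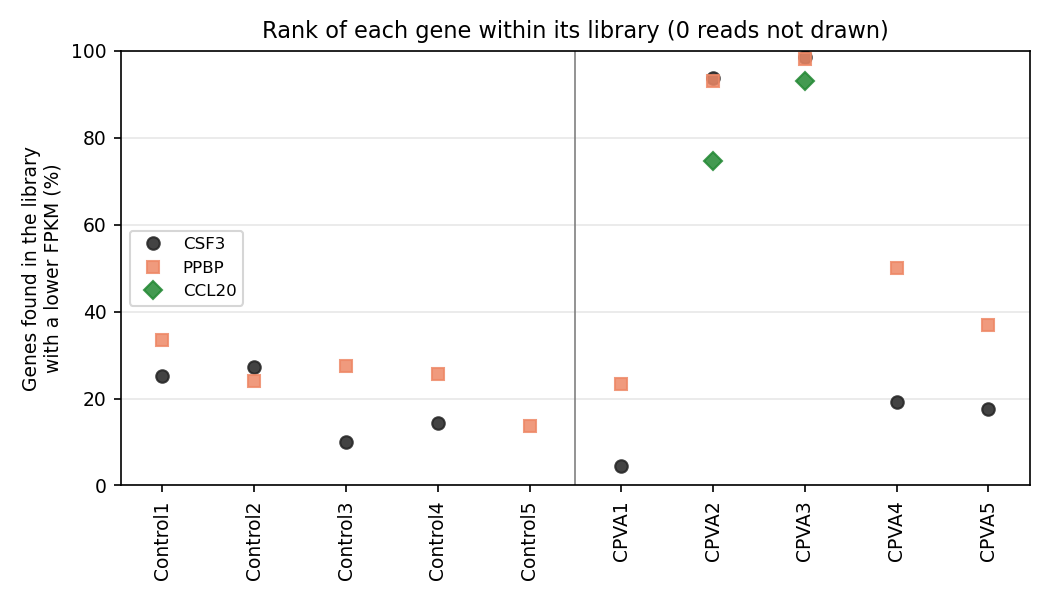
Share of the genes found in each library that had a lower FPKM than CSF3, PPBP or CCL20 (vertical axis, %), for the 5 control libraries left of the line and the 5 CPVA libraries right of it; libraries with 0 reads of a gene have no point. Each gene stood above at least 74.6% of the genes found in CPVA2 and in CPVA3, and PPBP stood well above CSF3 in CPVA4 (49.97% against 19.3%) and CPVA5 (36.9% against 17.6%).

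The order of the genes among themselves changed between libraries. In CPVA2 and CPVA3, CSF3 was the highest of the 3 and CCL20 the lowest. CSF3 was 4.36 times CCL20 in CPVA2 and 4.38 times in CPVA3, and PPBP was 3.97 and 3.24 times CCL20. In 7 of the other 8 libraries PPBP was above CSF3, the exception being Control2.

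The FPKM of PPBP divided by that of CSF3 was 0.910 in CPVA2 (interval 0.850 to 0.974) and 0.739 in CPVA3 (interval 0.708 to 0.772). It was 16.3 in CPVA4 (interval 6.68 to 51.9) and 6.61 in CPVA5 (interval 2.74 to 19.3). Over the summed reads of the 5 control libraries, 52 for PPBP and 29 for CSF3, it was 2.09 (interval 1.30 to 3.42). The single control libraries spread widely, from 0.729 in Control2 (interval 0.296 to 1.71) to 7.59 in Control3 (interval 1.72 to 69.2), and CPVA1 had 9.34 (interval 1.25 to 414.3). The intervals of CPVA2 and CPVA3 overlapped that of Control2, and the intervals of CPVA4 and CPVA5 overlapped that of Control3.

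**Figure D3:**
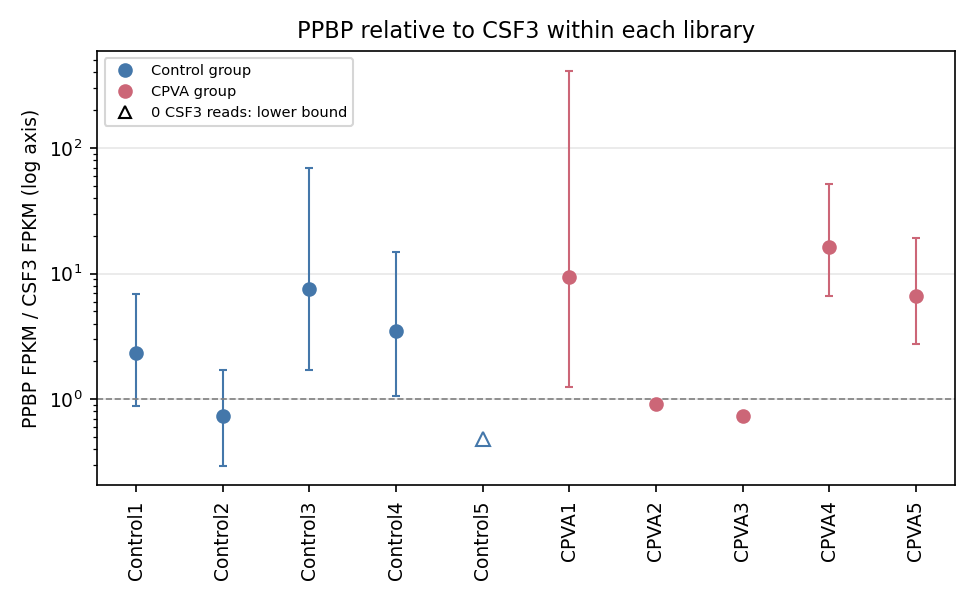
PPBP FPKM divided by CSF3 FPKM within each library (log axis), with exact 95% binomial intervals; blue, control group; red, CPVA group; the open triangle is the lower bound in Control5, where CSF3 had 0 reads. The ratio was under 1 in CPVA2, CPVA3 and Control2 and highest, at 16.3, in CPVA4.

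The step from CPVA2 to CPVA3 was smaller for PPBP than for CSF3. CPVA3 was 4.78 times CPVA2 for CSF3 (interval 4.54 to 5.04), 4.76 times for CCL20 (interval 3.34 to 6.91, at its smallest reads) and 3.89 times for PPBP (interval 3.66 to 4.13). The intervals of CSF3 and PPBP did not overlap, while that of CCL20 covered both. Over the 18337 genes tested with reads in both libraries the median of this ratio was 1.17, and 95% of these genes were below 3.39. Median-of-ratios scaling of the libraries lowers this ratio by the same factor in every gene. With it the step was 4.17 for CSF3, 4.15 for CCL20 and 3.39 for PPBP.

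The 3 genes were then set beside all genes tested, 19222 genes whose FPKM averaged 0.1 or more, a filter that CCL20 passed only through CPVA2 and CPVA3. CPVA3 was the highest and CPVA2 the second highest library for 16.4% of the genes tested. Both libraries were at least 20 times the highest control value, or above 0 against controls at 0, in all 3 genes and in 0.525% of the genes tested. At least 2 CPVA libraries were above the highest control library for 34.5% of the genes, and all 3 genes are among these.

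For PPBP, 4 CPVA libraries were above the highest control library, which was the case for at least 4 libraries in 5.09% of the genes tested. CPVA4 and CPVA5 were both above it in 5.77% of the genes. Taken library by library, CPVA3 was above the highest control library for 47.6% of the genes, CPVA2 for 28.5%, CPVA4 for 19.2%, CPVA5 for 16.3% and CPVA1 for 6.25%. The choice of the genes used this contrast, so nothing is read from these shares about the 3 genes.

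**Figure D4:**
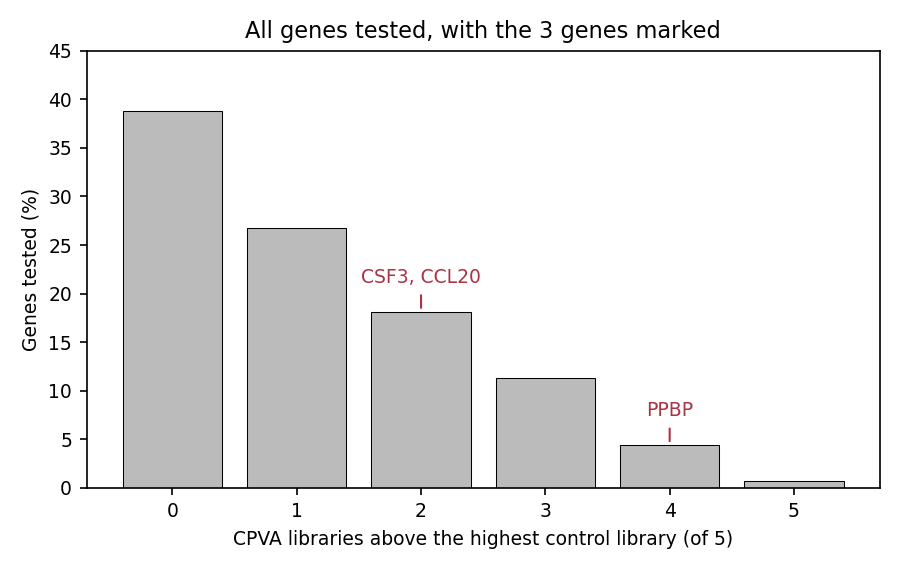
Share of the 19222 genes tested (vertical axis, %) by the number of CPVA libraries above the highest control library. CSF3 and CCL20 fall in the class of 2 libraries, which holds 18.1% of the genes, and PPBP in the class of 4 libraries, which holds 4.38%.

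In the limma fit over all genes, on log2(FPKM + 0.1), the log2 fold change between the groups was 3.50 for CSF3 (SE 1.96) and 3.89 for PPBP (SE 1.43). Without CPVA2 and CPVA3 these were -0.099 and 1.37. A call needed a Benjamini-Hochberg adjusted p under 0.05 and a log2 fold change of 1 or more in either direction. Limma called 0 of the 3 genes and 0 of the 19222 genes (0%). With the p left unadjusted, limma gave 662 of the 19222 genes tested. Limma voom on the reads gave 0 genes at the adjusted threshold and 620 at the unadjusted one.

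The likeness of each gene to the other genes tested was measured as Pearson's r of log2(FPKM + 0.1) over the 10 libraries. All genes were measured in the same libraries, and CPVA2 and CPVA3 were far above the rest for each of the 3 genes, so r is only a description. The 3 genes most like CSF3 had names: IL1B (r = 0.997), MARCO (r = 0.996) and IGLV2-33 (r = 0.992), which encode interleukin 1 beta, a scavenger receptor of macrophages and an immunoglobulin light chain segment. The 5 genes most like PPBP (r of 0.977 to 0.989) and the 5 most like CCL20 (r of at least 0.9995) carry no symbol in the sources used here.

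Among the named genes, CTSE, which encodes the protease cathepsin E, was nearest to PPBP (r = 0.977, rank 6), and C4BPA, which encodes a chain of a complement regulator, was nearest to CCL20 (r = 0.996, rank 19). CSF3 and PPBP had r = 0.958 over the 10 libraries. Over the 8 libraries other than CPVA2 and CPVA3 it was 0.41. CSF3 had at most 16 reads in any of these, and counting error lowers r at so few reads. The lower r is therefore not read as a difference between the genes. An r of at least 0.9 was reached by 5.20% of the other genes tested for CSF3, 4.09% for PPBP and 3.79% for CCL20.

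Few of the genes that act with CSF3, PPBP and CCL20 could be read, since identifiers were paired with symbols for 20 genes only. Of 6 cytokines listed here as inducers, IL1A and IL1B had an identifier, since both are on the study's list, which was chosen on the same contrast. Both were high in CPVA2 and CPVA3 alone: IL1B had 1, 4 and 1 reads and IL1A had 2, 1 and 4 reads in CPVA1, CPVA4 and CPVA5, not above the highest control library. PPBP was above the control group in CPVA4 and CPVA5 while these cytokines were not. Whether they act on PPBP was not tested.

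Among the 20 listed genes, 6 were above the highest control library in both CPVA4 and CPVA5. These were PPBP, CTSE, EREG, CRB2, NDST4 and SPOCK3, named here after their values were seen. The list was chosen on this contrast, and the share over all genes tested was 5.77%. Some of these genes had few reads. In CPVA4, CRB2 and NDST4 had 2 reads, EREG had 4, and CTSE and SPOCK3 had 6. In CPVA5, CTSE had 2 reads, CRB2 had 9, EREG had 20, NDST4 had 53 and SPOCK3 had 177. The most reads in a control library was 1 for CTSE, EREG, CRB2 and NDST4, and 4 for SPOCK3. In CPVA4, CTSE was 6.30 times its highest control value, on 6 reads, and PPBP 5.25 times, on 70 reads.

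Of 5 macrophage markers, MARCO and CD5L had an identifier, because they are on the study's list. That list was chosen on the same contrast, so their high level in the CPVA group was part of the choice. The other macrophage markers could not be read. The summed level of MARCO and CD5L was 109.4 FPKM in CPVA2 and 432.5 FPKM in CPVA3. It was 0 in CPVA1, 0.181 in CPVA4, 0.259 in CPVA5 and 0.0742 to 0.387 FPKM in the control group. The sum was thus high in CPVA2 and CPVA3 together with all 3 genes, and lay inside the control range in CPVA4 and CPVA5, where PPBP was above it; CD5L alone was 1.02 times its highest control value in CPVA4. The part of macrophages in the levels of the 3 genes was not tested. In bulk tissue, more cells of a type and more RNA per cell cannot be told apart. Markers of platelets, neutrophils and atrial myocytes were fixed as lists but had no identifier (0 of 5, 0 of 6 and 0 of 5 genes), so the platelet content of CPVA4 and CPVA5 and the labelled tissue itself were not checked here.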

How the data were processed

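Total RNA was taken from atrial tissue of 10 canines, mRNA was enriched with oligo(dT) beads, and the authors deposited 1 FPKM value per gene and library. The submitters' processing notes name CASAVA, HISAT2, featureCounts and CanFam3.1, with no versions. Each of the 10 columns was matched to a sample by its title.

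Whole reads, counted lengths and library totals were worked out from the ratios between FPKM values, as checked on simulated reads. All 27638 genes with reads gave whole reads and a whole length, which held at least 99.998% of the reads of each library. For 6487 genes with reads in 1 to 4 libraries, CCL20 among them, the reads are the smallest that the values allow.

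The limma package (3.58.1; R 4.3.3) was fitted to log2(FPKM + 0.1) of CPVA against control (eBayes with trend, Benjamini-Hochberg adjustment), using the 19222 genes whose FPKM averaged 0.1 or more. DESeq2, which the study names, was not run on these values; limma voom on the recovered reads was an alternative. The limma fit gives the background; the members' own contrast is described only. Intervals were computed with scipy 1.17.1 in Python 3.11.15. No pair of libraries held identical values.

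The genes, the lists and the alternatives were chosen with earlier results of these data known. Named genes were the members and, for likeness of pattern, the study's other listed genes and the 5 genes most like each member; genes named outside this rule are listed genes or markers, chosen for their values or roles. The RefSeq table of UU_Cfam_GSD_1.0 holds 0 Ensembl identifiers, and symbols therefore came from the study's list of 20 genes. Lists of receptors (0 of 4 genes paired), neutrophil chemokines (0 of 6), colony-stimulating factors (0 of 3), neutrophils, platelets and atrial myocytes were therefore not analysed here. No sequence is shown, since none was at hand for these genes.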

Additional observations from a re-analysis of the deposited data

Results flagged for a closer look

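In the CPVA group, CPVA3 stood apart from the other 4 libraries on linear FPKM for each of the 3 genes. The distance from CPVA3 to CPVA2, the next library, was 0.791 of the range of the group for CSF3, 0.744 for PPBP and 0.79 for CCL20, where Dixon's 95% limit for 5 values is 0.71. Chance gives about 1 such group in 20, a rate that does not hold here, since the genes were chosen by their high CPVA values in these libraries. The 3 were among 5 groups of libraries tested, since CCL20 has no range in the control group, and they are not independent, because the same library is highest in each. On log2(FPKM + 0.1), 0 of the 5 groups were past that limit.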

How the results depend on the processing

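The number of genes called over all genes was 0. Scaling by median-of-ratios gave 1 gene, a pseudocount of 0.01 gave 1, and leaving out CPVA2 and CPVA3 together, an alternative chosen after seeing the data, gave 1. Leaving out 1 library at a time gave from 0 to 4 genes: the most, 4, without CPVA1, then 3 without Control4, and 1 when Control1, Control3 or CPVA5 was left out. The cause was not tested. Of the 3 genes, 0 were called under any of the 18 alternatives run. The log2 fold change of CSF3 turned to -0.0994 without CPVA2 and CPVA3. It otherwise stayed above 0 for CSF3, and it stayed above 0 for PPBP and CCL20 under each alternative that gave a value; CCL20 fell below the filter without both libraries. The number of CPVA libraries above the highest control library ranged from 1 to 2 for CSF3 and for CCL20 across the leave-one-out runs, being 1 without CPVA2 or CPVA3, and stayed at 3 or 4 for PPBP. CSF3 was found in 7 libraries, in place of 9, at 3 reads or at 0.1 FPKM.

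With the replicate number as a block, 0 genes were called, and 589 genes, in place of 662, passed the unadjusted threshold. The numbers did not pair the libraries: same-numbered deviations from the group means correlated at -0.28 to 0.169, over 0.1 in 2 of 5 pairs, and 0 libraries correlated best with their own number. Depth limits the zeros of CCL20 and the order of neighbouring CSF3 values among its 8 low libraries.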

Other observations

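Over all genes, 1705 were found in exactly 2 of the 10 libraries, and in 141 of them the pair was CPVA2 and CPVA3. CPVA3 was above CPVA2 in FPKM in 118 of these 141 genes. CPVA3 had the lowest library total and CPVA2 the highest, so equal reads give a higher FPKM in CPVA3. Nothing is read from this count. Counted at the smallest reads that the values allow, CCL20 was the only gene found in exactly 2 libraries with at least 40 reads in both. That limit was chosen after the reads of CCL20 had been seen, so nothing is read from it.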
